A study of Mus musculus with 6 samples.

Results

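Among the probes of a mouse CpG island array, 409 short runs on the autosomes consisted of 3 to 5 probes that were all 45 bp long. A run is a set of neighbouring probes with no more than 500 bp from one start to the next on the mm9 build, and every run of 3 or more probes is called a region here. The 409 runs made up 1.81% of the 22574 regions on the array and 1.89% of the 21604 autosomal regions. They were chosen from probe positions and lengths alone, without any signal value. Of the 409 runs, 167 had 3 probes, 154 had 4 and 88 had 5, in all 1557 probes, and they spanned 440 to 1564 bp with a median of 662 bp.

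The samples were hypothalamic DNA of mouse offspring at 16 weeks of age. Of 6 samples, 3 came from offspring of dams with obesity, whose diet the labels give as high in fat, and 3 from offspring of dams treated with inulin, a fermentable plant fibre. The labels do not say whether the inulin dams were also on that diet, nor give the strain, the sex of the offspring or the litters. Since nothing says that samples came from separate litters, p-values measure only the spread between these samples, which may be technical in part. Whole hypothalamus holds many cell types, and a shift in their proportions cannot be told apart from a change within cells. Each sample was hybridised to 1 two-colour array, with DNA captured by an antibody to methylated cytosine (MeDIP) in red and the same sample's input DNA in green. The level of a region is the mean over its probes of log2 MeDIP over input, with each array's median probe at 0, and a group difference is always inulin minus obesity.

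CpG islands are stretches rich in CG dinucleotides that lie at many promoters and are mostly unmethylated in normal tissue, while islands within genes or between genes are methylated more often. Captured DNA rises with the number of methylated CG sites on a fragment, so a level depends on CG density as well as on methylation, and a fragment of the usual size carries sites beyond the probe itself. On arrays of this kind shorter probes generally stand in GC-rich sequence, where a shorter stretch reaches the same melting temperature.

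The runs were short, but most were not isolated. The nearest probe outside the run lay a median of 573 bp away, with a range of 451 to 112034 bp. In 365 of the 409 runs (89.2%) it lay within 1000 bp, in 10 it lay between 1000 and 5000 bp, and in only 34 (8.31%) was it over 5000 bp away. By contrast, 77.5% of the other autosomal regions had no other probe within 5000 bp. Among autosomal runs with equally few probes that held a longer probe, however, this share was only 19.7%. Their nearest outside probe lay a median of 593 bp away, so this closeness was not particular to the 45 bp runs. Most of the 409 runs thus ended at a spacing a little over 500 bp and not at the edge of a probed stretch. Joining starts up to 1000 bp apart left 73 such runs, and joining only up to 300 bp gave 1772. GC content was not measured, because no mm9 sequence was at hand, and for the same reason regions are named by position only. They are called short runs of 45 bp probes in what follows.

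The 6 arrays each held 174638 probes that were not controls. From 94.4% to 96.4% of them had input well above background, and from 77.3% to 85.7% had MeDIP signal well above it. Pairs of arrays correlated at 0.90 to 0.97 over all probes. All 3 inulin arrays lay on slide 1, while obesity 1 and obesity 3 lay on slide 2 and obesity 2 on slide 3, so that slide and group cannot be told apart except through the 2 slides of the obesity group. Of the 409 runs, 404 (98.8%) were measured, meaning that at least 50% of their probes were well above background in both channels on at least 2 arrays of each group, against 92.1% of all regions. No short run had all its MeDIP probes below background on every array of a group.

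Most short runs were enriched in the MeDIP DNA. Their median level was 0.50 on inulin 1, 0.50 on inulin 2 and 0.50 on inulin 3, and 0.58, 0.66 and 0.58 on obesity 1, 2 and 3. Every array therefore had its median short run clearly above the median probe. On all 6 arrays 314 runs (76.8%) were above 0, against 34.9% of the other autosomal regions, 29 were below 0 throughout, and 66 changed sign between arrays. A level above 1 on all 6 arrays, a doubling over the median probe, was found at 45 of the 409 runs and at 0.321% of the other autosomal regions. None stood below -1 on all 6. Mean levels over the 6 arrays ran from -1.20 to 1.99. A high share above 0 was not particular to the short runs. Array by array, 82.9% to 87.5% of the short runs were above 0. Among autosomal runs of 6 or more probes that were all 45 bp long, 94.6% to 97.3% were. Above 1 the order turned, with 13.7% to 26.2% of the short runs and 4.03% to 19.96% of those longer runs.

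**Figure D1:**
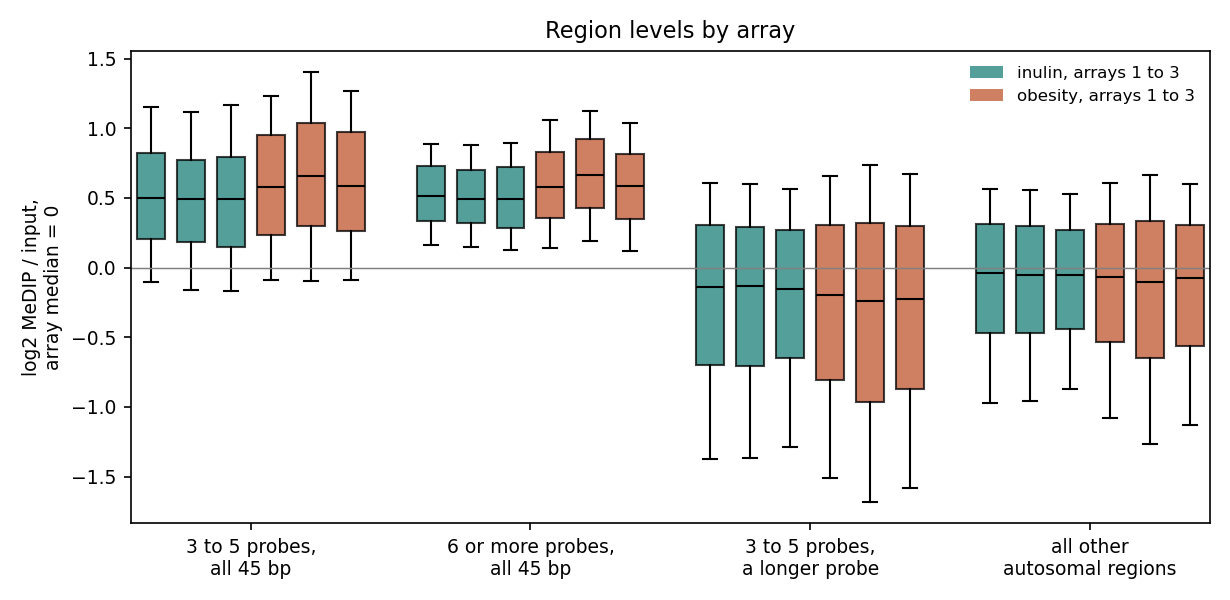
Level of the regions on each array (log2 MeDIP over input, array median at 0) for short runs of 45 bp probes, longer runs of 45 bp probes, short runs with a longer probe and all other autosomal regions; boxes span the quartiles with the median as a line, and whiskers the 10th to 90th percentile. Both sets of 45 bp probes have medians from 0.49 to 0.66, and the median of the short runs with a longer probe lies below 0 on every array.

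Longer runs of the same probes stood at a similar level. The 521 autosomal runs of 6 or more probes that were all 45 bp long had a median from which that of the short runs differed by -0.0025 on average over the 6 arrays (SD 0.0058, range -0.014 to 0.0021; exact sign-flip permutation test, two-sided, p = 0.375). The 2686 autosomal runs of 3 to 5 probes that held at least 1 longer probe lay far lower. Against these, the short runs of 45 bp probes were higher by 0.73 (SD 0.11) on 6 of 6 arrays, with an exact sign-flip p of 0.03125, the smallest that 6 arrays allow, and 0.0375 after Benjamini-Hochberg adjustment over the 12 such comparisons made. Both channels were higher as well on 6 of 6 arrays, the MeDIP signal by 1.04 (SD 0.059) and the input by 0.30 (SD 0.063).

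The short runs varied more among themselves than the longer ones. Their interquartile range of levels exceeded that of the longer runs of 45 bp probes by 0.23 (SD 0.018) on 6 of 6 arrays and fell short of that of the other short runs by 0.41 (SD 0.089; exact sign-flip p = 0.03125 for each, adjusted p = 0.0375). A mean of 3 to 5 probes averages less than a mean of 6 or more, and the part of this in the first gap was not tested. Levels repeated closely from array to array: over the 409 runs, arrays correlated at 0.942 to 0.966 within the inulin group, at 0.905 to 0.952 within the obesity group and at 0.880 to 0.913 between groups. The median SD of a run over arrays was 0.071 for inulin and 0.11 for obesity, beside an SD of 0.52 across the runs' mean levels.

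Within a run the probes differed widely. The median SD among the probes of 1 run was 0.65 and the median range 1.41. The outermost probes lay lower than the inner ones by a median of 0.24 to 0.31 on each of the 6 arrays (mean -0.27, SD 0.030; exact sign-flip permutation test, two-sided, p = 0.03125). Outer probes were lower in 255 of the 409 runs and higher in 154, so the pattern was a tendency and not a rule.

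Levels also differed across the gap that ended a run. For 157 short runs another region of 3 or more probes lay within 1000 bp, usually of 3 probes (the median). Of these neighbours 24 were short runs of 45 bp probes themselves and 3 were longer runs of them. The rest held at least 1 longer probe, and the mean probe length over all neighbours was 49.1 bp. The short runs had a median level of 0.67 and their neighbours one of -0.20. Over the arrays the median gap was 0.79 (SD 0.13, range 0.66 to 0.95; exact sign-flip permutation test, two-sided, p = 0.03125). It was close to the 0.73 found against all short runs with a longer probe, wherever these lay. The test cannot separate position from probe length, and the part of probe length was not tested. Of the 157 runs 121 (77.1%) stood above their neighbour and 36 below. Levels on both sides of a gap were almost unrelated, with a Pearson correlation of -0.050 over the 157 pairs, which share the 6 arrays and in which a pair of short runs can enter from both sides.

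**Figure D2:**
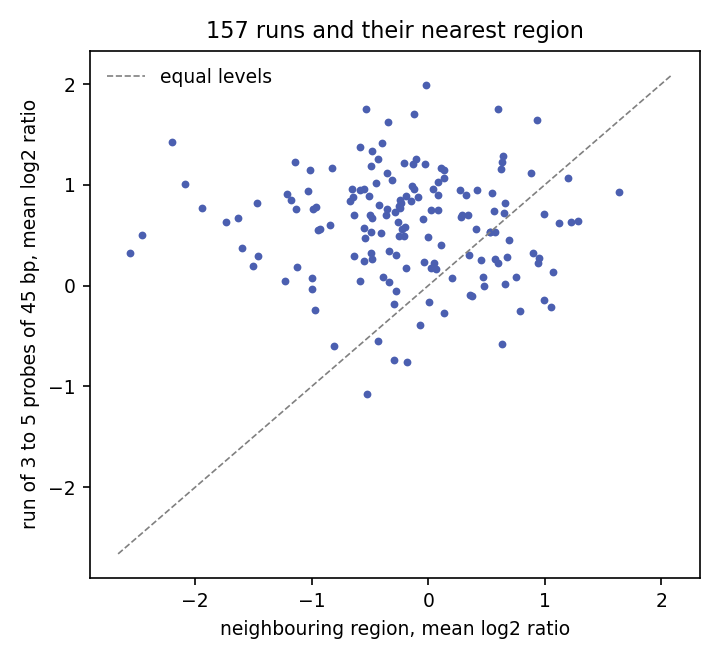
Mean level over 6 arrays (log2 MeDIP over input) of 157 short runs of 45 bp probes on the vertical axis against that of the nearest region of 3 or more probes within 1000 bp on the horizontal axis, with the line of equal levels dashed. Of the 157 points 121 lie above the line, and the cloud shows no slope.

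The highest level belonged to chr4:147314931-147315389, a run of 3 probes. It read 1.96, 1.76 and 1.97 on the inulin arrays and 2.05, 2.22 and 1.996 on the obesity arrays, so the groups lay next to each other but did not overlap. Its neighbour 495 bp away, also of 3 probes, had a mean level of -0.016. Next came chr5:115584496-115584939 with a mean of 1.83, chr18:21159693-21160284 with 1.76, chr5:125343182-125343734 with 1.75, chr10:80755359-80756045 with 1.70 and chr7:34981263-34981721 with 1.68. At chr5:125343182-125343734 a neighbour of 5 probes lay 485 bp away at 0.60. All 6 of these runs had every probe above background in both channels. Of the 6 only chr18:21159693-21160284 was called between the groups, lower in inulin by -0.45 (limma adjusted p = 0.0237), with 1.40, 1.60 and 1.60 on the inulin arrays and 2.07, 1.95 and 1.92 on the obesity arrays.

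At the other end, chr11:73600457-73600924 had the lowest level, with -1.35, -1.38 and -1.33 on the inulin arrays and -1.08, -0.99 and -1.04 on the obesity arrays. The arrays of each group lay close together and the groups did not overlap (difference -0.31; limma adjusted p = 0.0325). The following 5 were chr11:51958532-51958998 at -1.07, chr11:98601887-98602686 at -1.02, chr2:32005490-32006367 at -0.79, chr9:44887042-44887693 at -0.75 and chr7:16870635-16871126 at -0.74. Input was above background at every probe of these 6 runs. At chr11:98601887-98602686 and chr2:32005490-32006367, however, a probe had no value on any inulin array, because spots marked as outliers were left out. At chr9:44887042-44887693 and chr7:16870635-16871126 a probe had no value on some arrays. Levels of these runs thus average different probes between arrays. At chr2:32005490-32006367 and chr7:16870635-16871126 the input was bright, 2.10 and 2.52 above the array median on the log2 scale, as it was above 2 at 21 of the 409 short runs.

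Between the groups, the short runs as a whole read lower in the offspring of inulin dams. Array medians averaged 0.50 ± 0.0027 (SD, n = 3) for inulin and 0.61 ± 0.046 (SD, n = 3) for obesity, a difference of -0.11 that turned to 0.012 when arrays were brought to an equal scale and to 0.0042 in the authors' deposited table. The groups did not overlap, with an exact two-sided permutation p of 0.1, the smallest that 3 against 3 arrays allow, and 0.146 after adjustment over 19 such comparisons. The share of runs above 1 was 15.4%, 13.7% and 14.9% on the inulin arrays and 22.2%, 26.2% and 23.2% on the obesity arrays; on an equal scale the order turned, with 20.3% for inulin and 17.8% for obesity. The share above 0 did not separate the groups, at 85.2% ± 2.3 and 85.7% ± 0.14 (SD, n = 3; exact permutation p = 0.7).

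The spread among the short runs moved with their median. Their interquartile range was 0.62 ± 0.025 over the inulin arrays and 0.73 ± 0.013 over the obesity arrays (SD, n = 3), a difference of -0.11 that became 0.039 on an equal scale and 0.0054 with quantiles matched. Other regions were compressed in the same way: the interquartile range differed by -0.076 for the longer runs of 45 bp probes and by -0.21 for the short runs with a longer probe, and on an equal scale by 0.020 and 0.026. The median of the longer runs of 45 bp probes differed by -0.11, as that of the short runs did, and by 0.014 on an equal scale. For the short runs with a longer probe, whose median level lay below 0 on each array, the median differed by 0.078, and by 0.038 on an equal scale. All these array summaries have the exact permutation p of 0.1 without scaling. How much of the group difference belongs to the scale of the arrays was not tested beyond these values.

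Neither channel alone separated the groups. Median MeDIP signal of the short runs, relative to each array's median, was 0.997 ± 0.021 on the inulin and 1.03 ± 0.065 on the obesity arrays, and median input 0.41 ± 0.055 and 0.37 ± 0.082 (SD, n = 3; exact permutation p = 0.7 and 0.6). In both channels the arrays of the groups overlapped.

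Single runs were then tested with limma over all 22574 regions, and a run was called where the Benjamini-Hochberg adjusted p was under 0.05. Of the 409 short runs 35 (8.56%) were called, against 7.42% of all regions. The directions differed from the array as a whole: 31 runs (7.58%) were lower in inulin, against 1.81% of all regions, and 4 (0.978%) were higher, against 5.61%. The longer runs of 45 bp probes leaned the same way, with 22 of 521 (4.22%) called lower and 0 higher. Among the short runs the split was 8 lower and 10 higher with arrays on an equal scale, in all 4.401% of them against 4.04% of all regions. After quantile normalization it was 6 lower and 4 higher, in all 2.44% against 2.20%, so under both scalings the share called was near that of the array. Of the 31 lower calls 7 were called lower on an equal scale, 28 after loess, 6 with quantiles matched and 3 in the authors' deposited table. When slide entered as a random block, none of the 409 was called, and 89 had an unadjusted p under 0.05. With that block 0 of all 22574 regions were called either. The same held when any 1 of the inulin arrays was left out: 0 short runs and 0 of all regions were called, with 95 to 121 short runs at an unadjusted p under 0.05.

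At unadjusted p, 141 runs (34.5%) passed 0.05, against 28.6% of all regions. The arrays of the groups did not overlap at 41.3% of the runs, against 35.0% of all regions. At 142 runs the inulin arrays were lower (background 14.2%) and at 27 higher (background 20.8%). Among the 521 longer runs of 45 bp probes they were lower at 214 and higher at 22. The median difference was -0.12 over the 409 runs and 0.033 over all regions, and on an equal scale 0.021 and 0.018. Differences above 0 were found at 110 of the 409 (26.9%), against 21.9% of the longer runs of 45 bp probes and 57.3% of all regions.

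The difference went with the level of the run. At the 13 runs with a mean level below -0.5 the median difference was 0.11, at the 44 between -0.5 and 0 it was -0.032, and at the 125 between 0 and 0.5 it was -0.056. Above that it was -0.15 at the 155 runs from 0.5 to 1 and -0.16 at the 72 above 1. Other autosomal regions followed the same course, with 0.19, 0.055, -0.018, -0.093 and -0.15 over these 5 ranges. Equal scaling turned the direction: the median was then -0.067 at the 57 short runs below 0, 0.011 from 0 to 0.5, 0.011 from 0.5 to 1 and 0.11 above 1. Without scaling the short runs' median lay below that of the other autosomal regions in each of the 5 ranges, a difference that was not tested. Lower calls were made at 9.03% of the short runs from 0.5 to 1 and 12.5% of those above 1, against 5.41% and 10% of the other autosomal regions.

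**Figure D3:**
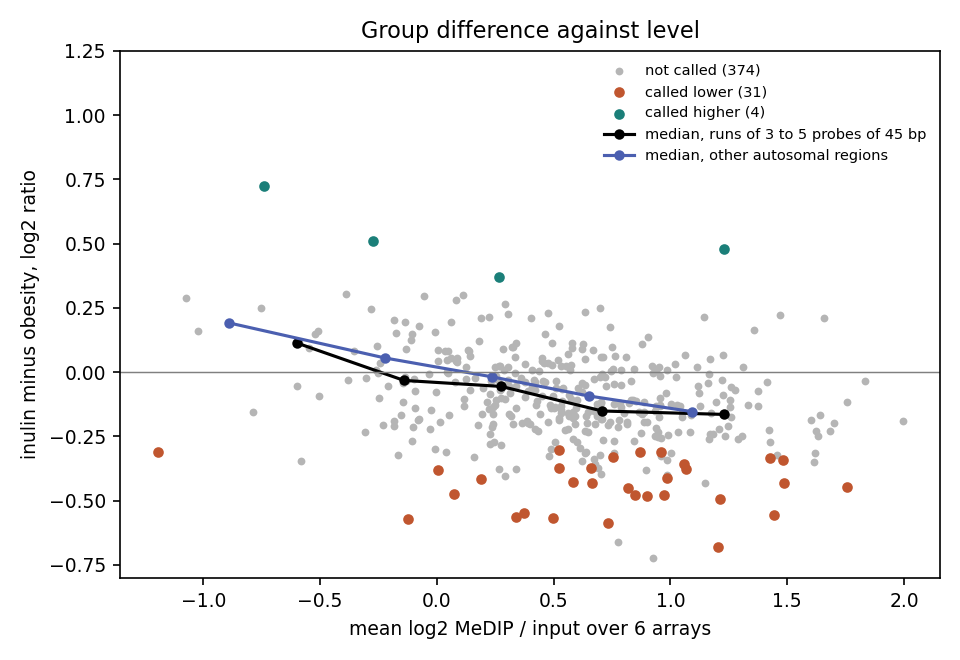
Group difference (inulin minus obesity, log2 ratio) of the 409 short runs of 45 bp probes against their mean level over 6 arrays, with the 31 runs called lower and the 4 called higher in colour; lines join the medians of 5 ranges of level. Both lines fall from above 0 at low levels to about -0.15 at levels above 1, without scaling; on an equal scale the direction turns.

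Brightness of the input moved with the calls too. Among the 77 runs whose input lay more than 0.5 below the array median, 16 (20.8%) were called lower and none higher. Over all regions 1.81% were called lower and 5.61% higher. The median level of these 77 runs was 0.74. Of the 116 runs with input more than 1 above it, whose median level was 0.42, 1 (0.862%) was called lower and 3 (2.59%) higher. Shares of other regions in the same ranges of input were not computed. Input is also the denominator of the ratio, and the part of its brightness in the group difference was not tested. In the MeDIP channel alone limma called none of the 409 runs, against 0.253% of all regions, with 83 runs at an unadjusted p under 0.05 (background 21.0%). Input alone gave 6 calls, against 2.14% of all regions, and 95 runs at an unadjusted p under 0.05 (background 24.4%). Of these 6, chr11:61668095-61669049, chr7:88357405-88358264 and chr8:73033771-73034673 were also called lower on the ratio, with more input in the inulin group by 0.47, 0.50 and 0.58.

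The 31 runs called lower had a median difference of -0.43, from -0.68 to -0.30, and their mean levels had a median of 0.82. MeDIP signal was lower in inulin at 24 of them and input was higher at 27. Since the runs were called on the ratio of the 2 channels, these directions follow in part from the calling. Over all 409 short runs MeDIP was higher in inulin at 168 and input at 249. Input differed more than MeDIP at 20 of the 31, against 52.1% of the 409 short runs and 49.1% of all regions. Of the 34 runs with no other probe within 5000 bp, 5 (14.7%) were called lower and none higher, against 1.81% and 5.61% of all regions. Of the 365 short runs with another probe within 1000 bp, 26 (7.12%) were called lower and 4 higher, and of the 10 in between none was called. The difference between the isolated and the other short runs was not tested. The median difference over the 34 was -0.16. Among the runs not called, the largest lower differences were at chr9:119266491-119266930 at -0.72 (limma adjusted p = 0.0752), where the obesity arrays read 1.88, 1.15 and 0.82, and chr15:89041701-89042341 at -0.66 (limma adjusted p = 0.0694), where inulin 3 read -0.098 and the other inulin arrays 0.76 and 0.67. Both were picked for mention after their values were seen.

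Among the runs called lower, the largest difference was at chr8:96334379-96334951, a run of 3 probes. Its levels were 0.995, 0.56 and 1.04 on the inulin arrays and 1.59, 1.19 and 1.85 on the obesity arrays. The groups did not overlap, but each had 1 lower array, inulin 2 and obesity 2. The difference was -0.68 (SE 0.17), with a limma adjusted p of 0.0489. Its middle probe read 2.83 on obesity 1 and 2.92 on obesity 3, both on slide 2, and 1.11 on obesity 2 on slide 3, while the inulin arrays read 1.32, 0.80 and 1.47. On obesity 2 this probe was thus within the inulin range. With normexp background correction the difference was -0.11 (limma adjusted p = 0.175).

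Tighter groups were seen at chr7:104473975-104474442, also of 3 probes. It read 0.48, 0.42 and 0.41 on the inulin arrays and 1.03, 1.14 and 0.90 on the obesity arrays. The gap between the groups was wider than the range within either, and the difference was -0.59 (SE 0.081; limma adjusted p = 0.0146, the lowest among the 409). On an equal scale it was -0.43 (limma adjusted p = 0.0264), with normexp -0.34 (limma adjusted p = 0.0193) and -0.20 in the table the authors deposited (limma adjusted p = 0.215). Both channels of this run were higher in inulin, MeDIP by 0.28 and input by 0.88, so the MeDIP signal itself was not lower. Its last probe had no value on inulin 1 and obesity 1, and over complete probes the difference was -0.56 (limma adjusted p = 0.0116). A neighbour of 4 probes 506 bp away, with a mean level of -0.29, went the other way, with a difference of 0.57 (limma adjusted p = 0.0333).

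At chr8:73046580-73047310, a run of 4 probes, the sign of the level changed. Inulin arrays read -0.50, -0.38 and -0.34, all below 0, and obesity arrays 0.094, 0.095 and 0.30, all above it. The difference was -0.57 (SE 0.086; limma adjusted p = 0.0178) and was -0.60 on an equal scale (limma adjusted p = 0.0201) and -0.24 with normexp (limma adjusted p = 0.0267). Its 4 probes spanned a wide range, from a mean over the inulin arrays of -1.98 at the first to 1.12 at the next to last, and each was higher in the obesity group on average.

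The next run, chr3:87861923-87862450, rested on 1 of its 3 probes. The run read 0.27, 0.029 and 0.34 on the inulin arrays and 0.78, 0.66 and 0.90 on the obesity arrays, a difference of -0.57 (SE 0.10; limma adjusted p = 0.0220). At its last probe the inulin mean was -0.20 and the obesity mean 1.22. The first probe averaged 0.20 and 0.38 and the middle one 0.65 and 0.74. Where only probes with input above background were used, the difference was -0.14 (limma adjusted p = 0.305). Over the whole run MeDIP differed by -0.084 and input by 0.50. Its neighbour 491 bp away, with a mean level of -2.46, was called higher in inulin, by 0.61 (limma adjusted p = 0.0146).

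Another 4 complete the 8 largest lower calls. The run of 4 probes at chr8:113823636-113824350 read 1.26, 1.06 and 1.17 on the inulin arrays and 2.08, 1.55 and 1.54 on the obesity arrays. Its difference was -0.56 (SE 0.14; limma adjusted p = 0.0457). The high value of obesity 1 lacked the run's lowest probe, which read 0.69 and 0.38 on obesity 2 and 3. Over the probes with a value on all arrays the difference was -0.43 (limma adjusted p = 0.0219). Both channels of this run were higher in inulin, MeDIP by 0.12 and input by 0.69. At chr16:4726200-4726708 inulin 3 stood apart, with 0.38 against -0.028 and -0.052 on the other inulin arrays and 0.56, 0.60 and 0.79 on the obesity arrays (difference -0.55, SE 0.12; limma adjusted p = 0.0341). Under normexp that difference was -0.0012 (limma adjusted p = 0.992). At this run MeDIP differed by -0.055 and input by 0.51.

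The run of 4 probes at chr5:151476099-151476856 read 0.95, 0.92 and 1.03 on the inulin arrays and 1.64, 1.31 and 1.43 on the obesity arrays (difference -0.50, SE 0.094; limma adjusted p = 0.0239). It was the obesity arrays that spread there, and on an equal scale the difference was -0.24 (limma adjusted p = 0.218). The eighth, chr11:5161116-5162195, was truly isolated, with the nearest probe 108033 bp away. Its 5 probes averaged 0.63, 0.56 and 0.79 on the inulin arrays and 1.1, 1.20 and 1.13 on the obesity arrays, and all 5 were higher in the obesity group. The difference was -0.48 (SE 0.082; limma adjusted p = 0.0205), and -0.29 on an equal scale (limma adjusted p = 0.0760).

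Only 4 short runs were called higher in inulin. Input differed more than MeDIP at 2 of them, against 52.1% of the 409 short runs. At chr7:16870635-16871126, 1 of the 6 runs of lowest level, the inulin arrays read -0.22, -0.45 and -0.46 and the obesity arrays -1.38, -1.13 and -0.79. The groups were far apart, by 0.72 (SE 0.14; limma adjusted p = 0.0249), with a difference of 0.67 in the MeDIP channel and -0.038 in the input. On an equal scale the difference of the ratio was 0.57 (limma adjusted p = 0.0519). The last probe of the run had no value on inulin 3 and obesity 1. Over the probes with a value on all arrays the difference was 0.90 (limma adjusted p = 0.0160).

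The run at chr9:108886959-108887463 read 0.47, 0.49 and 0.39 on the inulin arrays and 0.076, 0.23 and -0.054 on the obesity arrays. Its difference was 0.37 (SE 0.086; limma adjusted p = 0.0379) and 0.44 on an equal scale (limma adjusted p = 0.0288). It was 0.21 with normexp (limma adjusted p = 0.0548) and 0.12 with the median of the probes (limma adjusted p = 0.618). The first of its 3 probes differed most, with a mean of 0.11 in the inulin and -0.66 in the obesity group.

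Both remaining higher calls rested on a probe that lacked a value on some arrays, because spots marked as outliers were left out. At chr5:150076564-150077011 the first probe, which read -1.19, -1.16 and -0.98 on the obesity arrays, had no value on any inulin array. The run's difference of 0.51 (SE 0.082; limma adjusted p = 0.0183) was 0.22 over the probes measured on all arrays (limma adjusted p = 0.120). The same was true of chr7:16552400-16552933, whose first probe read 0.43, 0.72 and 0.38 on the obesity arrays and had no value on the inulin arrays. There the difference of 0.48 (SE 0.083; limma adjusted p = 0.0213) was 0.24 over the shared probes (limma adjusted p = 0.204) and -0.034 with the marked spots kept (limma adjusted p = 0.798). MeDIP differed by -0.056 at that run and input by -0.52. Differences at these 2 runs thus compare different sets of probes between the groups. In all, 144 of the 409 short runs and 10 of the 35 called ones had a probe without a value on some array. With complete probes only, 71 of the 409 (17.4%) were called, against 10.4% of all regions. Of the 71, 63 were lower and 8 higher, and they included all 31 lower calls and 2 of the 4 higher ones.

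**Figure D4:**
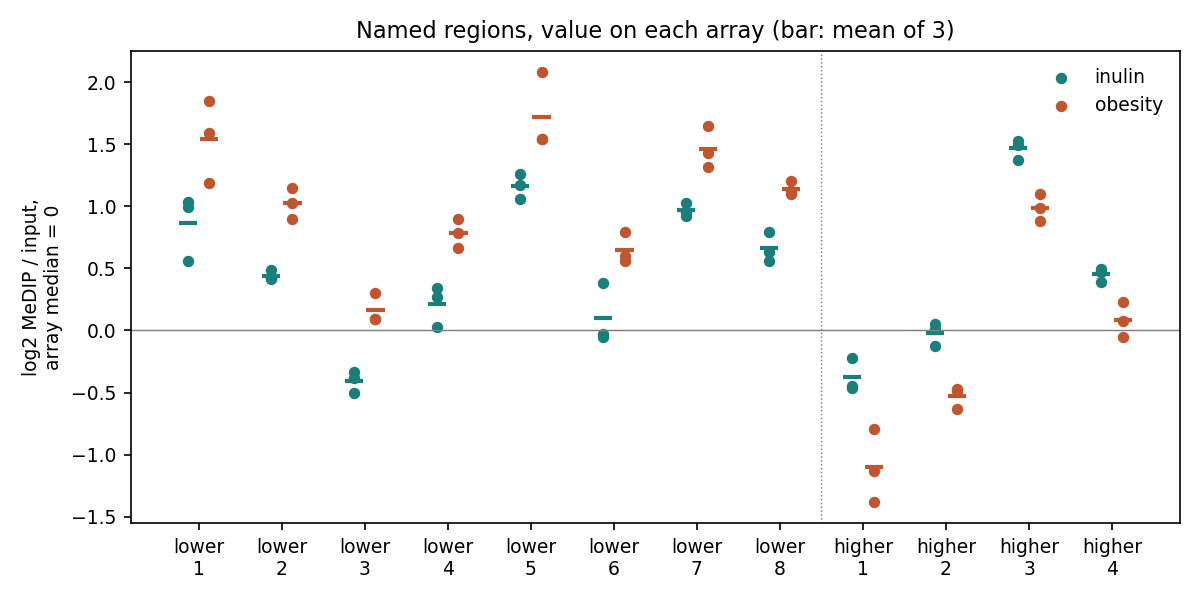
Level (log2 MeDIP over input, array median at 0) on each of the 6 arrays of the 8 short runs with the largest difference among those called lower and the 4 called higher, numbered by size of difference; points are arrays and bars group means of 3. Groups do not overlap in any of the 12, which were picked by their calls on these same arrays. Over all regions groups did not overlap at 35.0%. The runs marked higher 2 and higher 3 lack 1 probe on all inulin arrays.

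Group differences of short runs and neighbours were almost unrelated. Across the 157 pairs within 1000 bp the median difference was -0.10 at the short runs and 0.00068 at their neighbours, and the Pearson correlation of the differences was -0.091, as a description over pairs that share the same 6 arrays. The difference had the same sign on both sides in 84 of the 157 pairs. Of the 14 called short runs with such a neighbour, none had one called in the same direction, 2 had one called in the other direction, both described above, and 4 had one with a difference of the same sign. Among all 157 neighbours 10 were called higher and 2 lower, beside 5.61% and 1.81% of all regions. The level gap between short run and neighbour was itself smaller in inulin by -0.23, and by -0.057 on an equal scale (exact permutation p = 0.1 for both, the smallest possible).

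**Figure D5:**
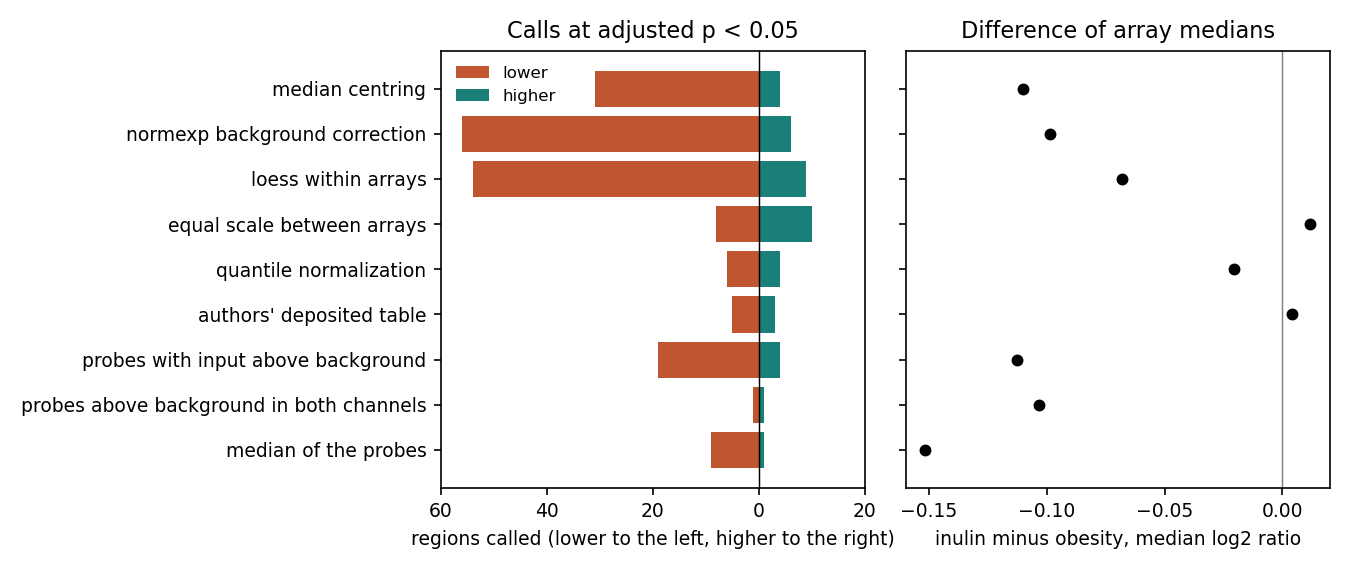
Number of the 409 short runs called at an adjusted p under 0.05, lower to the left and higher to the right, and the difference of the array medians (inulin minus obesity, log2 ratio), under 9 ways of processing the same arrays. Lower calls lead under median centring, normexp and loess, and fewer calls with a difference of medians near 0 remain in the authors' deposited table, with quantiles matched and on an equal scale.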

How the data were processed

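Arrays were scanned and extracted by the authors with Feature Extraction 11.0.1.1, per the file headers, which also name the mm9 build. The deposited processed signals are intensity values, background-subtracted and dye-normalized per the file headers, with a log10 ratio of red over green that equalled that of the signals within 0.0001 at 98.5% to 99.6% of spots. The authors' deposited table holds a score per probe whose log base, scale and centring are unknown; its direction is that of the ratio, with correlations of 0.87 to 0.91 per array, and its medians were 0.061, 0.057 and 0.043 for inulin and 0.056, 0.054 and 0.054 for obesity. Its making is not described in the labels or headers.

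Log2 ratios of the processed signals were centred on each array's median over non-control probes, without spots marked as outliers (1901 to 4863 per array), and averaged per region, with no loess or quantile step. Regions with values on at least 2 arrays per group were tested with limma 3.58.1 in R 4.3.3 (lmFit, eBayes, two-sided), tested on simulated data. Single values per array had exact permutation tests. Named runs are the 8 largest differences per direction among called, measured runs, and the 6 highest and 6 lowest levels. The rule for the members used probe positions and lengths only. It was set, as were the lists and tests, with earlier results of these data known. Alternatives are given in the closing section, 4 of them chosen after the data were seen. Figures used matplotlib 3.10.9. The number of arrays limits precision.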

Additional observations from a re-analysis of the deposited data

How the results depend on the processing

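The 35 calls among the short runs moved under most settings, as did calls over all regions, whose share is in brackets. Their number was 62 with normexp (8.51%), 63 with loess (12%), 18 on an equal scale (4.04%), 10 after quantile normalization (2.20%) and 8 in the authors' deposited table (1.83%). In the last 3 the short runs' own shares were 4.401%, 2.44% and 1.96%. It was 23 with probes whose input was above background (4.64%), 2 with probes above background in both channels (0.618%), and 10 with the median of the probes (3.25%). Other run definitions gave 114 of 1772 runs at starts up to 300 bp apart (6.51%) and 7 of 73 at 1000 bp (7.85%). Of 34 runs with no probe within 5000 bp 5 were called (7.42%). Array weights gave 144 (30.4%) and an adjusted p under 0.1 gave 87 (17.7%). Slide as a random block gave 0, as over all regions, with 89 at an unadjusted p under 0.05. Position on the slide as a block gave 0, as over all regions, and 118 short runs had an unadjusted p under 0.05. With complete probes 71 were called (10.4%) and with outlier spots kept 64 (11.7%). The robust prior gave 51 (7.38%), autosomal regions only 40 (7.77%) and centring on autosomal probes 35 (7.32%). Leaving out 1 array gave 0 to 51 calls: 0 without each inulin array in turn, as over all regions, 19 without obesity 1 (4.22%), 51 without obesity 2 (9.62%) and 19 without obesity 3 (2.80%). The cause of these shifts was not tested.

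The replicate number as a block gave 56 calls (12%), 49 lower and 7 higher, and 0 calls on the input channel. Same-numbered arrays deviated together with correlations of -0.14, 0.28 and 0.33, the last the highest of all pairs across groups. Of 6 arrays 4 correlated best with their own number. The labels give no pairing beyond that number, so the samples were not treated as pairs in the main test. Whether same-numbered samples share anything more was not tested.

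The difference of medians, -0.11, was 0.012 on an equal scale (exact permutation p = 0.1, the smallest possible) and 0.0042 in the deposited table. It was -0.099 with normexp, -0.068 with loess, -0.020 after quantile normalization and -0.15 with the median of the probes. With 1 array left out it was -0.12 to -0.084. The difference of interquartile ranges, -0.11, was 0.039 on an equal scale, 0.0054 after quantile normalization and 0.028 at the 34 runs without a probe within 5000 bp, and -0.12 to -0.097 with 1 array left out. The gap to the longer runs of 45 bp probes changed sign or side: -0.015 with normexp, -0.0043 after quantile normalization, -0.041 at 1000 bp, -0.010 with complete probes, 0.0047 and 0.0094 with the background filters, 0.025 with the median of the probes, 0.049 at 300 bp, 0.0066 at isolated runs, and -0.0034 to -0.00026 with 1 array left out. The gap to the other short runs ran from 0.45 to 0.83 over 20 settings, and was 0.70 to 0.75 with 1 array left out, where 5 arrays cannot go below p = 0.0625 in the exact sign-flip permutation test. On the MeDIP channel 1 run was called on an equal scale and 0 under the other alternatives. The 6 input calls were 2 after quantile normalization, 0 with slide as a random block and 0 to 1 with 1 array left out. Of the named runs, chr7:16552400-16552933 turned to -0.034 with outlier spots kept. Differences at the other 11 kept their direction in all 22 settings tried for each, but lost their call in 5 to 13 of them. Of all 12, 3 remained called in the deposited table, 1 with probes above background in both channels, 4 with the median of the probes, 5 after quantile normalization, 6 on an equal scale and 0 with slide as a random block.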

Other observations

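Short runs of 45 bp probes were spread unevenly over the chromosomes. Chromosome 7 held 62 of the 409 and chromosome 5 held 41, which were 2.97% and 3.14% of the regions there. On chromosome 3 they were 0.922% of the regions, on chromosome 19 0.958% and on chromosome 18 0.716%, with 4 runs. Median levels by chromosome ran from 0.071 on chromosome 12, with 9 runs, to 0.82 on chromosome 18. Calls were spread as well, with 6 lower and 2 higher on chromosome 7, 5 lower on chromosome 8 and none on chromosomes 4, 10, 14, 15 and 19. Calls over all regions were not counted by chromosome. The 15 runs on chromosome 1 had a median level of 0.39 and 1 lower call.

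Apart from chr11:5161116-5162195 and chr11:73600457-73600924, the isolated runs called lower were chr17:23939394-23940335, chr2:158186746-158187783 and chr7:50663064-50663947, which were chosen for mention after their values were seen. Their mean levels were 0.73 and 1.21, -0.018 and 0.40, and 0.45 and 0.88 in the inulin and the obesity group.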
